A study of Arabidopsis thaliana with 6 samples.

Results

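The TE genes of chromosome 4 are 711 of the 3901 transposable element (TE) genes in the deposited TE gene table of Arabidopsis thaliana, chosen because their identifier begins with AT4G. Total RNA was sequenced from whole seedlings 7 days old, in 3 libraries of the mutant tsk-4 and 3 of the wild-type ecotype Col. The mutant carries an allele of TONSOKU (TSK) and is otherwise described only by that name, and no treatment is given for either genotype. Whether the replicates are separate plant cultures is not stated, and their spread, which every p-value rests on, may be technical. In whole seedlings, fewer cells that express a TE gene and less RNA per cell cannot be told apart.

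A TE gene is an annotated gene that lies within a transposable element, often the reading frame of a transposase or a retrotransposon polyprotein. Most are kept silent by DNA methylation, by methylation of histone H3 and by compact chromatin. They crowd the heterochromatin around the centromere. On the short arm of chromosome 4, Col also carries a heterochromatic knob, a block of TE-rich sequence that an inversion moved away from the centromere. TONSOKU acts at replication forks, where it binds newly deposited histones and takes part in the repair of broken forks.

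By the middle of each TE gene in the TAIR10.1 annotation, 16 lay on the distal short arm and 111 in the knob, taken as 1.6 to 2.3 Mb. Another 15 lay between knob and pericentromere, 422 in the pericentromere, taken as 2.8 to 5.2 Mb, and 147 on the long arm. These borders are approximate positions set by hand. Values are given as whole reads, which were recovered from the deposited TPM (transcripts per 1000000), or as TPM. The TE gene table sums to 1000000 on its own, so 1 read on 1 kb was worth 99.6 to 123 TPM. The libraries held 13726929 to 14946295 reads in the gene table and 20505 to 24565 in the TE gene table. TSK itself measured 0.903 ± 0.0657 TPM in tsk-4 and 3.62 ± 0.234 TPM in Col (SD, n = 3 each), with no overlap (log2 change -1.55, limma adjusted p = 0.000966).

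Sequences of members that the results turn on are shown first, from TAIR10.1 and 5′ to 3′ on the strand of the TE gene. The first 3 are opening stretches of the members with the most tsk-4 reads among those called higher below.
AT4G07850 (chr4:4671637-4671786, plus strand): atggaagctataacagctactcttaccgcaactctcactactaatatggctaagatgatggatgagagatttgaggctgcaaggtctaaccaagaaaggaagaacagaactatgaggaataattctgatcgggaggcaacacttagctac
AT4G06615 (chr4:3283784-3283933, plus strand): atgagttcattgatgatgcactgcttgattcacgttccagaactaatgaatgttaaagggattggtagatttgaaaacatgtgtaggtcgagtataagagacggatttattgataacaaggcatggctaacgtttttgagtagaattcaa
AT4G06506 (chr4:3182191-3182340, minus strand): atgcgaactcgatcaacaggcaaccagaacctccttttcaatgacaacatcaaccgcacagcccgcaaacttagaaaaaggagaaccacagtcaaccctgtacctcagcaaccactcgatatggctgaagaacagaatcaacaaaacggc

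The next 4 show a stretch, in capitals, that recurred near several members with reads in tsk-4.
AT4G06506 (chr4:3174952-3175021, minus strand): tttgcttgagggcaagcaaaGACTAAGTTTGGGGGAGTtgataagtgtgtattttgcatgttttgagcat
AT4G06712 (chr4:3989287-3989356, minus strand): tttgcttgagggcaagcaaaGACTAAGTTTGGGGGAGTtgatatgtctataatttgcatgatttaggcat
AT4G08050 (chr4:4894055-4894124, minus strand): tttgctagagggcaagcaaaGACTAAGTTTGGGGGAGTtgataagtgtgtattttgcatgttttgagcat
AT4G03860 (chr4:1811278-1811347, plus strand): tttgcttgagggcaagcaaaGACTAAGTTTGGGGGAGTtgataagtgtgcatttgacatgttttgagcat

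More TE genes of chromosome 4 had reads in tsk-4 than in Col. At least 1 read fell on 123, 116 and 125 of the 711 in tsk-4 libraries 1, 2 and 3, against 67, 60 and 53 in the Col libraries. Every tsk-4 library thus lay above every Col library. The means were 121 ± 4.73 in tsk-4 and 60 ± 7 in Col (SD, n = 3 each), a ratio of 2.02. The two-sided exact permutation test gave p = 0.1, the smallest that 3 libraries against 3 allow, and 0.133 after Benjamini-Hochberg adjustment over the 8 library comparisons of this family. The ratio was 2.0 with at least 2 reads required and 1.58 with at least 5.

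The other chromosomes moved the same way. Their TE genes with reads numbered 626 ± 13.2 in tsk-4 and 364 ± 10.3 in Col, a ratio of 1.72. Single chromosomes had ratios of 1.64, 1.86, 1.76 and 1.62 for chromosomes 1, 2, 3 and 5. Of all TE genes detected in a library, chromosome 4 held 16.2%, 15.9% and 16.6% in tsk-4, against 15.4%, 14.5% and 12.4% in Col. The groups did not overlap, and the exact permutation test of this share gave p = 0.1 (adjusted 0.133). As a share of its TE genes, chromosome 4 had 17.1% detected in tsk-4 and 8.44% in Col, a difference of 8.63 percentage points. The other chromosomes had 19.6% and 11.4%, a difference of 8.21 points. The higher ratio on chromosome 4 thus went with a lower share in Col. A larger response on chromosome 4 than elsewhere is therefore not shown.

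The added detection involved few reads. TE genes of chromosome 4 drew 1855, 1679 and 2039 reads in tsk-4, against 1626, 1726 and 1689 in Col, and the groups overlapped. Per 1000000 gene-table reads these were 126 ± 10.4 in tsk-4 and 117 ± 1.5 in Col (exact permutation p = 0.2, adjusted 0.229). The 5 most abundant members held 54.7% ± 2.19 of these reads in tsk-4 and 64.7% ± 1.77 in Col. Without them the level was 56.9 ± 1.90 reads per 1000000 in tsk-4 and 41.2 ± 2.40 in Col, with no overlap (exact permutation p = 0.1).

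Of the 711 TE genes, 488 had no read in any library, 123 had reads in tsk-4 only, 25 in Col only and 75 in both. Those in tsk-4 only made up 17.3% of the 711, against 18.0% of the TE genes of the other chromosomes. Col only made up 3.52% against 4.67%, and no read 68.6% against 63.6%. Reads in all 6 libraries were seen for 29. A single read was all that 53 of the 123 and 14 of the 25 had, and no TE gene seen in Col only had more than 4 reads. The repeatable patterns were one-sided. Reads in all 3 tsk-4 libraries and in no Col library were found for 22, and the reverse for 0. On the other chromosomes the same patterns held for 91 and 2 of 3190 TE genes. The first pattern thus made up 2.85% there and 3.09% on chromosome 4.

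**Figure D1:**
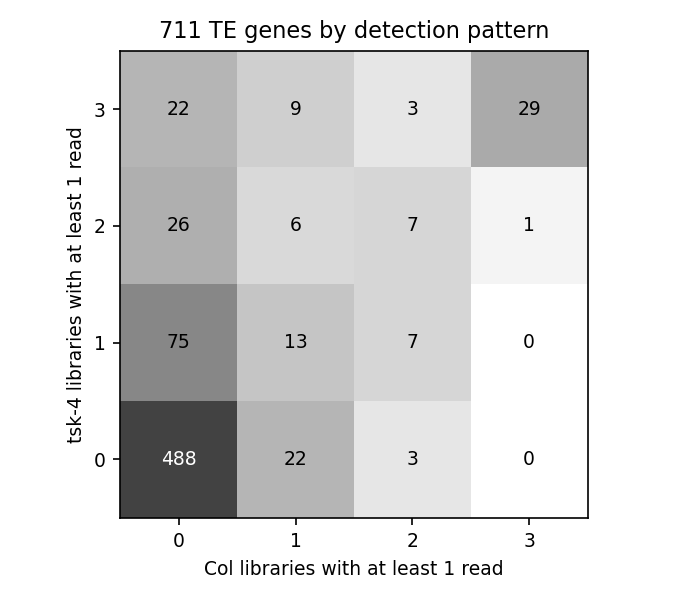
The 711 TE genes of chromosome 4 by the number of tsk-4 libraries (vertical axis) and Col libraries (horizontal axis) with at least 1 read; each cell holds its number of TE genes. The upper left corner holds 22 and the lower right corner 0, while 488 had no read.

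Most of the difference fell in the pericentromere and the knob, which also hold 422 and 111 of the 711. TE genes with reads in tsk-4 only made up 15.2% of the pericentromere, 26.1% of the knob and 17.0% of the long arm. They were 6.25% of the distal short arm and 26.7% of the zone between knob and pericentromere. In the pericentromere, 55, 52 and 64 TE genes had reads in tsk-4, against 23, 16 and 18 in Col, a ratio of 3.0. In the knob the numbers were 23, 22 and 14 in tsk-4, against 8, 7 and 5 in Col, a ratio of 2.95. The third tsk-4 library was the lowest of its group in the knob and the highest in the pericentromere. Both zones showed no overlap between the groups. On the long arm 34, 29 and 35 TE genes had reads in tsk-4, against 25, 26 and 23 in Col, a ratio of 1.32. The distal short arm gave 7, 8 and 8 in tsk-4, against 6 in each Col library. Each of these 4 zones gave an exact permutation p of 0.1 (adjusted 0.133). With at least 2 reads required, the long arm (20, 17 and 27 in tsk-4, against 17, 19 and 14 in Col) and the distal short arm (5, 5 and 7 in tsk-4, against 5 in each Col library) overlapped. The long arm also overlapped with a wider pericentromere of 2.5 to 6 Mb (26, 24 and 29 in tsk-4, against 24, 23 and 19 in Col). The knob and pericentromere stayed apart in both. The 15 TE genes between knob and pericentromere gave 4, 5 and 4 in tsk-4, against 5, 5 and 1 in Col, with overlap (exact permutation p = 1). Differences between zones were not tested.

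**Figure D2:**
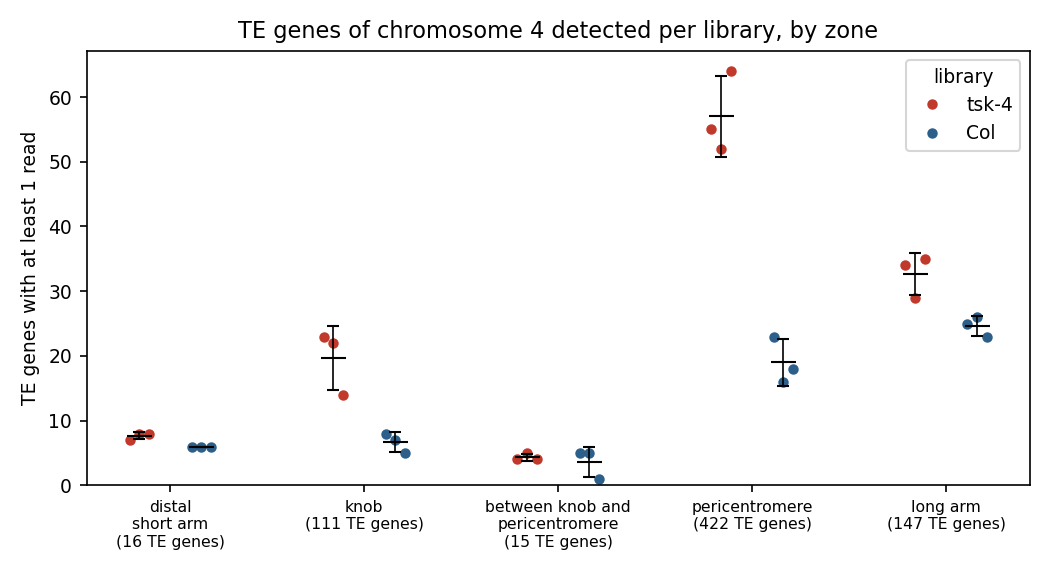
TE genes with at least 1 read (vertical axis) in each library, by zone of chromosome 4; points are libraries, with tsk-4 left of Col, and bars give the mean and SD of 3. In the pericentromere the tsk-4 libraries lie at 52 to 64 and the Col libraries at 16 to 23.

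**Figure D3:**
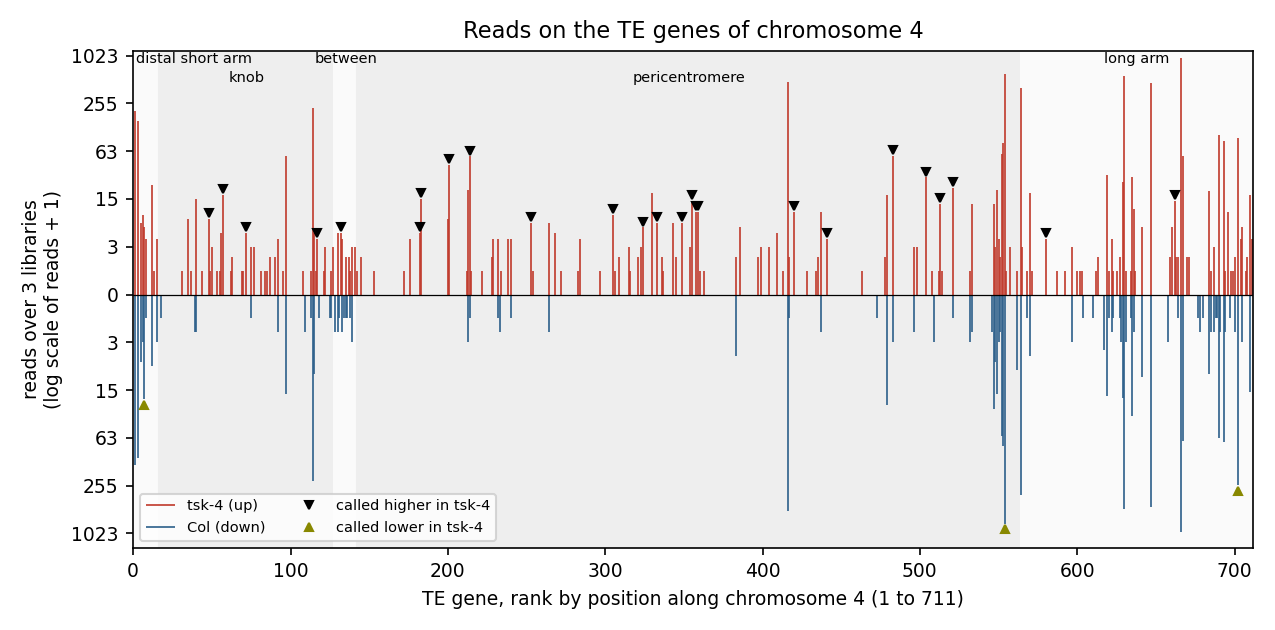
Reads summed over 3 libraries for each of the 711 TE genes in their order along chromosome 4 (horizontal axis, rank); tsk-4 is drawn upward and Col downward on a log scale of reads + 1. Triangles mark the 25 called higher and the 3 called lower. Of the 25, 18 lie in the pericentromere, which holds 422 of the 711.

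The test across TE genes was limma on log2(TPM + 0.5), adjusted over all 543 TE genes tested. Of the 84 TE genes of chromosome 4 with at least 1 TPM in at least 3 libraries, it called 25 higher in tsk-4 (29.8%) and 3 lower (3.57%). Over all TE genes tested, 23.6% were called higher and 2.95% lower. Groups did not overlap for 27 of the 84 with tsk-4 above Col (32.1%) and 5 with tsk-4 below (5.95%), against 30.0% and 8.47% of all tested. The median log2 change was 1.39 for the 84 and 0.60 for all 543. Both are raised by TE genes that enter the test through tsk-4 reads alone, whose log2 change depends on the pseudocount. By zone, the 25 included 18 of 40 tested in the pericentromere (45%) and 4 of 9 in the knob (44.4%). The others were 2 of 23 on the long arm (8.70%) and 1 of 4 between knob and pericentromere. The distal short arm had 0 of 8. Of all members of a zone, 4.27% were called higher in the pericentromere, 3.60% in the knob and 1.36% on the long arm. The shares of those tested depend on the filter. Of the calls, 15 in the pericentromere, 4 in the knob and 2 on the long arm had no Col read.

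Most of these calls restate detection. Of the 25, 22 had no Col read, and such a TE gene enters the test only with reads in every tsk-4 library. All 22 members of that pattern were called, down to 4 reads in all, as were all 113 TE genes of that pattern over the genome. Among the 62 tested members with any Col read, 3 were called higher. Summed over tsk-4, the 25 had a median of 10 reads, and 12 of them had fewer than 10. On simulated reads with no true change, this test also called TE genes of that sparse pattern, so for 22 of the 25 it is not evidence beyond the reads themselves. limma-voom on the recovered reads, which needs at least 10 reads over the libraries, called 16 of 51 higher (31.4%) and 3 lower, against 29.9% and 3.19% of all 345 TE genes it tested. It shared 13 of the higher calls and all 3 lower ones.

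AT4G07850 (chromosome 4, 4671637 to 4675725) had 22, 17 and 16 reads in tsk-4, against 1 in each Col library. The groups lay far apart. It measured 462 ± 71.1 TPM in tsk-4 and 29.0 ± 1.05 TPM in Col (SD, n = 3 each), a log2 change of 3.96 ± 0.33 (SE, limma adjusted p = 0.000357). The ratio of reads, corrected for depth, was 17.9, with a 95% counting interval of 5.81 to 89.4 (Clopper-Pearson). Among the TE genes called higher it had the most reads, and voom also called it (adjusted p = 0.000367). With tsk-4 library 1, 2 or 3 left out and the filter applied again, its limma adjusted p was 0.177, 0.179 or 0.122, at a log2 change of 3.85 to 4.07. On the TE genes of the full test the call was kept (adjusted p of 0.00187 to 0.00262), also by voom (0.00069 to 0.000994). All of its length was near-identical to sequence elsewhere in the genome. It is flanked by direct repeats of 1037 bases that are 97.7% identical, the arrangement of long terminal repeats.

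AT4G06615 (3283784 to 3284823) had 26, 20 and 8 reads in tsk-4, against 1, 0 and 0 in Col. The third tsk-4 library was the lowest of its group and still above every Col library. Its ratio of reads was 52.7, with a counting interval of 9.07 to 2120, and its adjusted p was 0.0432 by limma and 0.00137 by voom. AT4G08050 (4895659 to 4901632) had 6, 9 and 6 reads in tsk-4, against 0, 0 and 1 in Col. Its adjusted p was 0.0477 by limma and 0.00261 by voom. The limma call of AT4G06615 was lost without any tsk-4 library and without Col 2 or 3, with an adjusted p up to 0.289. That of AT4G08050 was lost without any tsk-4 library and without Col 1 or 2, up to 0.396. Voom lost AT4G08050 without Col 1 or 2. With replicate weights, limma lost both AT4G06615 (0.0816) and AT4G08050 (0.0788). Both were also lost by limma at a pseudocount of 0.1 (0.0653 and 0.075) and under quantile normalization (0.0525 and 0.161). The same held with 1 TPM required in only 2 libraries (0.0533 and 0.0616). AT4G06615 was near-identical to sequence elsewhere over 100% of its length and AT4G08050 over 40.8%.

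Among TE genes with no Col read, AT4G06506 (3176647 to 3182340) was the most strongly sampled, with 16, 10 and 16 reads in tsk-4. Against a floor of 3 reads over the Col group, that is at least 13.7-fold higher. It was near-identical to sequence elsewhere over 94.1% of its length, AT4G07942 over 69.7% and AT4G03910 over 100%. AT4G07942 (4773564 to 4776647) had 10, 12 and 7 tsk-4 reads with 0 in Col. The ratio at that floor was 9.43, and its counting interval begins at 7.19. In the knob, AT4G03910 (1843451 to 1845822) had 8, 7 and 2 tsk-4 reads with 0 in Col. The ratio at that floor was 5.53, and its counting interval begins at 4.03. Limma lost AT4G03910 under quantile normalization (adjusted p = 0.134), and voom without Col 1, 2 or 3 (0.0619, 0.0747 and 0.0533). AT4G03790, also of the knob, had 4, 4 and 0 tsk-4 reads with 0 in Col and did not enter the test.

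AT4G06485 had 8, 2 and 5 tsk-4 reads and AT4G06712 had 4, 7 and 3, with none in Col. AT4G08016 had 1, 3 and 9 tsk-4 reads, so most came from the third library. AT4G06718 and AT4G06720 had 10 reads each over tsk-4 and none in Col. On the long arm, AT4G15590 (8900245 to 8907255) had 3, 9 and 2 tsk-4 reads with 0 in Col. It had no copy among the TE genes and no stretch that was near-identical elsewhere. Under quantile normalization limma lost AT4G06485 (adjusted p = 0.167) and AT4G15590 (0.387). Without Col 1, 2 or 3, voom lost AT4G06485, AT4G15590, AT4G08016, AT4G06718 and AT4G06720 (adjusted p of 0.0545 to 0.136). AT4G06712 was lost by voom without Col 1 or 2 (0.0553 and 0.0706). Voom called AT4G03816, AT4G06517 and AT4G08091 as well, with 15, 20 and 13 tsk-4 reads against 2, 3 and 2 Col reads.

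**Figure D4:**
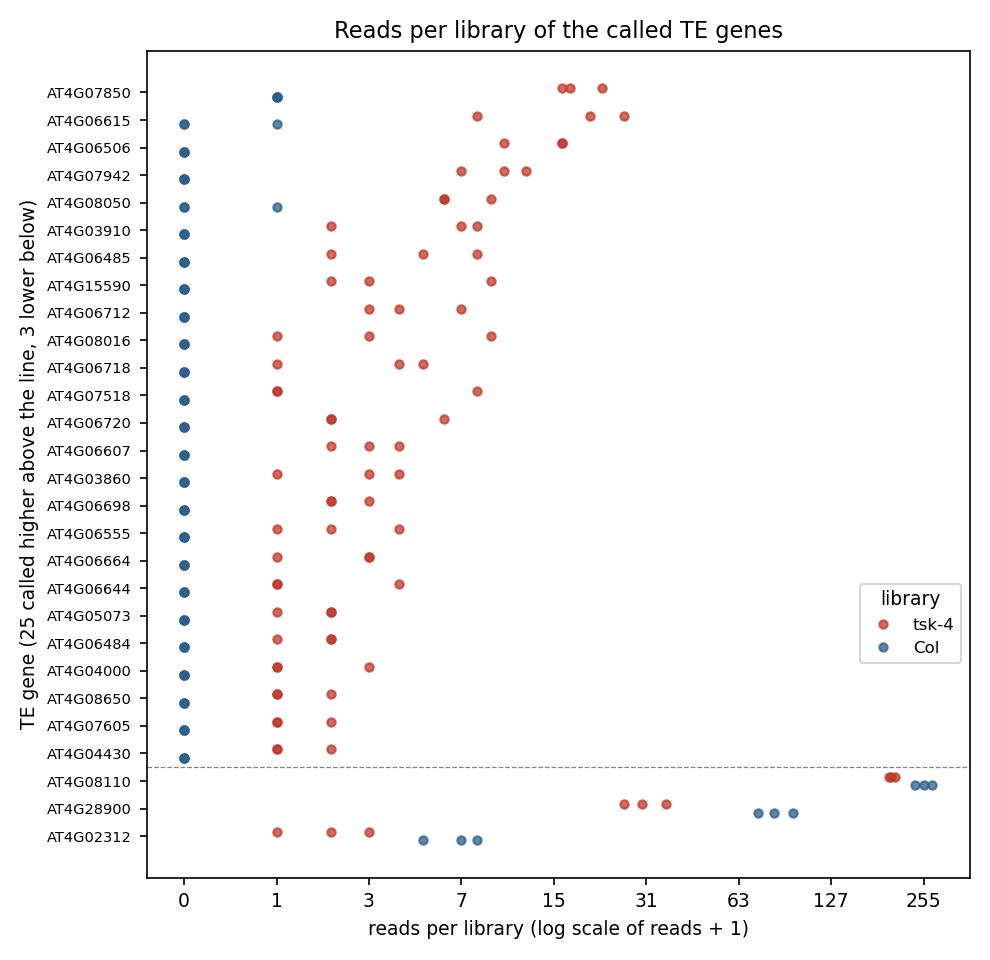
Reads in each library (horizontal axis, log scale of reads + 1) of the 25 TE genes called higher in tsk-4, above the dashed line, and the 3 called lower, below it; each point is a library, and points of equal value lie on each other. Col points sit at 0 for 22 of the 25, and several tsk-4 points sit at 1 read.

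AT4G28900 and AT4G08110, among the 3 TE genes called lower, had many more reads. AT4G28900 (14259141 to 14263704, long arm) had 30, 26 and 36 reads in tsk-4, against 82, 73 and 95 in Col. The groups did not overlap, at 691 ± 90.9 TPM in tsk-4 and 2167 ± 325 TPM in Col (log2 change -1.65 ± 0.18, limma adjusted p = 0.00103, voom 0.000391). The limma call was lost without tsk-4 library 1 (adjusted p = 0.106) or 3 (0.0961) with the filter applied again, at log2 changes of -1.61 and -1.75. On the TE genes of the full test it was kept (0.00667 and 0.00261), also by voom (0.00401 and 0.00259). It carries direct repeats of 373 bases that differ at 3 bases and are flanked by the same 5 bases, shown in capitals at the outer edges.
Left repeat (chr4:14258820-14258894, plus strand): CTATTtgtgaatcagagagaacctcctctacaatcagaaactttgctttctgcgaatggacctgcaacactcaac
Right repeat (chr4:14263761-14263835, plus strand): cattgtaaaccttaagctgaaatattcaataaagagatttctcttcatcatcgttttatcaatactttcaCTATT

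The nearest gene of AT4G28900, 330 bases away, is NINJA, which encodes an adaptor of jasmonate repressors. NINJA measured 46.8 ± 1.74 TPM in tsk-4 and 39.4 ± 2.55 TPM in Col (log2 change 0.24, limma adjusted p = 0.0455), the opposite direction. AT4G08110 (5083926 to 5086640) had 206, 197 and 200 reads in tsk-4, against 239, 272 and 255 in Col, with no overlap (log2 change -0.54 ± 0.06, limma adjusted p = 0.000757). AT4G02312 had 1, 3 and 2 reads in tsk-4, against 5, 8 and 7 in Col (log2 change -2.05 ± 0.48, limma adjusted p = 0.0288). When the filter was applied again to 5 libraries, lacking 1 of tsk-4, AT4G08110 had an adjusted p of 0.0542 to 0.148 at a log2 change of -0.57 to -0.52. On the TE genes of the full test its call was kept (0.00144 to 0.00427), also by voom (0.0113 to 0.0235), which lost it without Col 2 (0.061). AT4G02312 ranged in log2 change from -2.45 to -1.59 by limma with a library left out. On the TE genes of the full test its call was kept without tsk-4 1 (0.0328) or 2 (0.0178). It was lost there without tsk-4 3 (0.0893) and without Col 1, 2 or 3 (0.0543 to 0.0922).

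The most abundant TE genes of the chromosome, apart from AT4G08110, did not pass the test. AT4G16870 had 290, 262 and 406 reads in tsk-4, against 308, 339 and 344 in Col. AT4G07507 had 149, 133 and 194 reads in tsk-4, against 187, 193 and 159 in Col. AT4G08220, AT4G13120 and AT4G01525, which the annotation notes as a Sadhu non-coding retrotransposon, overlapped between the groups as well. AT4G08680, the TE gene MU1, had no read in any library.

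The 123 TE genes seen in tsk-4 only were a median 2372 bases long, against 3027 for the 75 seen in both genotypes and 1678.5 for the 488 with no read. They held a median of 35.7 CHG sites per kb (C, then any base but G, then G). It was 33.0 in those seen in both and 30.3 in those with no read. The 25 seen in Col only had 36.8, so a high CHG density was not particular to tsk-4 only. Read numbers were not corrected for length here. For the 123, the median distance to the nearest gene was 6878 bases, close to the 7552.5 of the TE genes with no read. It was 989 for those seen in both genotypes. Within zones some of these contrasts were smaller, some were larger and some turned. The distance was 17448 bases for tsk-4 only and 15232 for both in the pericentromere, and 789 and 788 on the long arm. CHG sites per kb were 36.2 for tsk-4 only, 27.9 for both and 31.5 for no read in the pericentromere, and 33.6, 35.1 and 25.8 on the long arm. Those seen in Col only held 29.8 in the pericentromere and 34.8 on the long arm. In the knob they held 40.5, against 34.8 for tsk-4 only. These medians are descriptions, with no test.

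**Figure D5:**
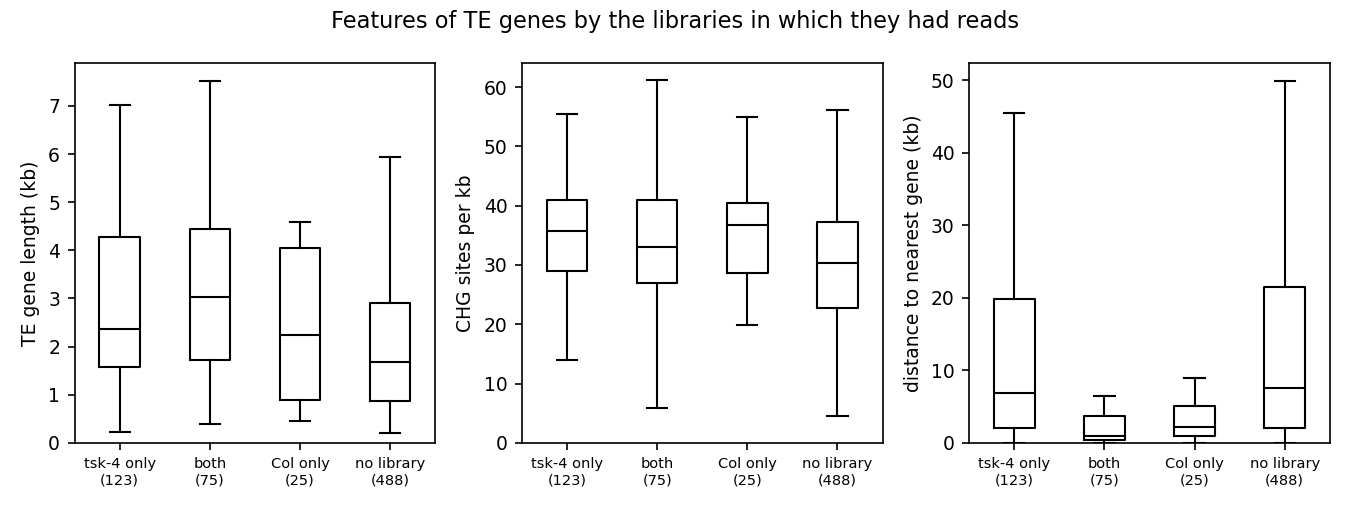
Length, CHG sites per kb and distance to the nearest gene of the TE genes seen in tsk-4 only, in both genotypes, in Col only and in no library; boxes give the quartiles and the median, whiskers reach up to 1.5 box lengths, and points beyond are not drawn. TE genes seen in both genotypes have a median distance of 989 bases over all zones, where the classes fall in different zones.

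Many of the called TE genes have copies. At least 50% of the length was near-identical to sequence elsewhere for 11 of the 25 called higher and for 226 of all 711, so reads on those cannot be placed with certainty. AT4G06506, AT4G06485 and AT4G08050 are copies of one another by the criterion of 80% identity over 50% of the length. AT4G07942 and AT4G03860 are copies of one another and matched those 3 over 50% of their own length, though not the reverse. Further pairs called higher are AT4G06712 with AT4G06664 and AT4G06607 with AT4G06484. So are AT4G06615 and AT4G06718, which were 93.2% identical over 989 aligned bases. Calls within such a group may share reads and are not independent.

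The stretch GACTAAGTTTGGGGGAGT, shown above, lay within a 10 kb window around the middle of 8 of the 25 called higher, on the strand of the TE gene in all 8. The 8 include copies of one another, AT4G06506 with AT4G08050 and AT4G06712 with AT4G06664, so they are not independent. Of the 47 members with it, 80.9% had it on that strand only, and 27 had no read in any library. Of all TE genes with it, 78.8% had it on that strand only. Its letters were picked by reading the flanks of these same TE genes and taken from beside AT4G07518, which is among the 8. The 8 of 25 and the strand share are therefore not independent of the choice. It was found, on either strand, for 6.61% of the 711, 10.4% of those in the pericentromere, 5.79% of all TE genes and 0.924% of 11911 windows of the same length over the genome. In 4 of the 8 it lay within 5 bases of a direct repeat.

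Of 28 listed genes of DNA methylation and silencing, 27 were tested, 6 were called higher and 1 lower, where 14.9% and 4.96% of all tested genes were called. The higher calls were DCL3, VIM1, HDA6, HTA7, H1.1 and H1.2. They fell to 3 under median-ratio scaling, which kept DCL3, H1.1 and H1.2. CMT2, a methyltransferase of CHG and CHH sites in heterochromatin, measured 14.7 ± 0.995 TPM in tsk-4 and 20.9 ± 0.822 TPM in Col (log2 change -0.49, limma adjusted p = 0.00536). DCL3, which makes the small RNAs of RNA-directed DNA methylation, measured 6.01 ± 0.87 TPM in tsk-4 and 3.67 ± 0.257 TPM in Col (log2 change 0.64, limma adjusted p = 0.018). DDM1, a remodeller that keeps TEs silent, was at 14.5 ± 0.898 TPM in tsk-4 and 12.5 ± 0.728 TPM in Col (limma adjusted p = 0.163). Many TEs are active in pollen. None of 6 pollen marker genes reached the filter, 3 were at 0, and their summed level was 0.511 to 1.14 TPM in tsk-4 and 0.739 to 2.0 TPM in Col. Markers of other tissues moved between the genotypes. Of 3 seedling shoot markers 2 were called lower, the photosynthesis genes RBCS1A (log2 change -0.35, limma adjusted p = 0.00312) and LHCB1.1 (-0.40, 0.000928). Of 3 root markers 1 was called higher, PRP3 (0.44, 0.00644), and of 3 seed markers 0 were called. Their part in the TE gene values was not tested.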

How the data were processed

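Per the submitters' processing notes, the tools were HISAT2, HTSeq 0.11.2, fastp 0.20.1 and DESeq2 1.26.0, with build TAIR10. The treatment of strand and of reads with several places to map is not given in the sources used here. The authors deposited TPM for genes, TE genes and TE fragments, each table summing to 1000000 on its own. Multiplied by the genomic span in TAIR10.1 and 1 constant per library, the values of all 711 TE genes came out as whole reads within 0.02. All 3901 TE genes matched the annotation by identifier.

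The main test was limma 3.58.1 (R 4.3.3) with a trend on log2(TPM + 0.5), for TE genes with at least 1 TPM in at least 3 libraries, Benjamini-Hochberg over the table, called under 0.05. In a table that sums to 1000000, a large change of abundant TE genes moves all others; median-ratio scaling gave 25 and 3 calls as well. Tested on simulated data, the fit recovered known increases better than decreases and did not hold its error rate. It called unchanged TE genes that had a few reads in every library of one group and none in the other, and called no other unchanged ones in the simulation kept here. Where TE genes were changed, the simulation kept here held the scale of each library fixed, unlike the deposited values, which sum to 1000000. In 2 earlier simulations with strong changes and no such hold, it also called many other unchanged TE genes, through the fixed sum of the table. It was kept because it was the planned test, and limma-voom on reads (at least 10, gene-table library sizes), which did not make those sparse calls but called a few other unchanged TE genes when many changed, stands beside it.

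The members, lists and zones were chosen with earlier results of these data known. The thresholds for copies and repeats, the searched stretch and voom with libraries left out were chosen after seeing the data. The plan named the 12 called higher with the most tsk-4 reads, all called lower, the 6 highest and MU1. It also named up to 2 per zone with no Col read, of which AT4G03300, AT4G05073, AT4G05505 and AT4G22415 are not described above. The lowest changes it named were not called. AT4G08145, AT4G08111, AT4G08090 and AT4G32205 had 1, 3, 1 and 6 reads over tsk-4, against 8, 6, 3 and 3 over Col. Another 3 voom calls were added after their values were seen. Intervals cover counting error only, and floors leave out the counting error of the tsk-4 reads. Python 3.11.15, pandas 2.3.3, SciPy 1.17.1 and Biopython 1.88 were used.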

Additional observations from a re-analysis of the deposited data

Results flagged for a closer look

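A signal also appeared in the table of TE fragments, which the comparisons above do not use. Of 4967 fragments of chromosome 4, 520, 509 and 547 had a value above 0 in tsk-4, against 442, 463 and 432 in Col. The means differed by 79.7 fragments (exact permutation p = 0.1). Values in all 3 tsk-4 libraries and in no Col library were found for 28 fragments, and the reverse for 4.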

How the results depend on the processing

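The number called higher (25) was 8 with at least 100 TPM required, 10 under quantile normalization and 16 by voom. With a replicate left out and the filter applied again it ranged from 0 to 30: it was 0 without tsk-4 replicate 1, 2 or 3 (4, 2 and 3 at an unadjusted p under 0.05), where no TE gene silent in Col can have 3 libraries with reads and enter, and 23 in each on the features of the full test. Voom gave 4, 5 and 6 without Col replicates 1, 2 and 3, and 12, 9 and 11 without those of tsk-4. The number called lower (3) ranged from 0 to 4 with a replicate left out, and was 1 by voom without Col replicate 2. The ratio of detected TE genes (2.02) was 1.58 with at least 5 reads, 1.94 at equal TE gene read totals, 1.15 as a share of all detected TE genes, and 1.91 to 2.15 with a replicate left out. That share's own ratio of 1.15 was 1.08 without Col replicate 3 and 1.2 without Col replicate 1. The pericentromere ratio (3.0) was 2.78 to 3.35 with a replicate left out. The ratio of reads per 1000000 (1.08) was 1.38 without the 5 most abundant members, and reversed to 0.985 as a share of all TE gene reads. Between knob and pericentromere the ratio (1.18) was 2.67 with at least 2 reads, reversed to 0.667 with a wider pericentromere and ranged from 0.867 (without Col replicate 3) to 1.44 with a replicate left out. The change of AT4G08220, not called, reversed to -0.094 without tsk-4 replicate 1, also on the features of the full test, and to -0.011 there by voom; leaving out a replicate gave -0.094 to 0.12. TE genes with Col reads stay in the test there and also lost calls; apart from the TE genes that could not enter, the cause of these shifts was not tested. Replicate numbers did not pair the libraries (correlations of -0.09, -0.02 and 0.03 among TE genes); with the replicate block, 24 were called higher and 3 lower, and AT4G08050 lost its call (adjusted p = 0.0991). At 1 to 10 reads per TE gene, depth limits what can be called.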
